A study of Mus musculus with 4 samples.

Results

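The 44 genes described here are 23 immediate-early genes, 9 heat-shock genes and 12 genes of the integrated stress and growth arrest responses. They were taken by gene symbol from the 52636 genes counted in each library, and all 44 were found. Immediate-early genes such as *Fos*, *Jun* and *Egr1* encode short-lived transcription factors and feedback regulators that are transcribed within minutes of a growth factor, mechanical or stress signal, without new protein synthesis. Heat-shock genes encode chaperones that heat-shock factor 1 induces when proteins misfold. In the integrated stress response, phosphorylation of eIF2alpha favours translation of Atf4, which induces amino acid synthesis genes such as *Asns* and the pro-apoptotic factor *Ddit3*. Enzymatic dissociation of tissue is known to induce many of these genes.

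RNA-seq was performed on tdTomato+ cells sorted by FACS from kidneys of E12.5 to E12.75 embryos, collected about 48 h after tamoxifen was started. Control 1 and control 2 came from *Eya1* CreER; tdTomato embryos, and *Eya1*cKO 1 and *Eya1*cKO 2 from *Eya1* CreER; *Eya1* fl/fl; tdTomato embryos, so that both genotypes carried the CreER allele and the reporter and were given tamoxifen. CreER was driven from the *Eya1* locus, the background was mixed C57BL/6J and 129/Sv, and each library was prepared from 5000 cells. Kidneys of several embryos were pooled, and the labels and the study's methods differ in how many. In both genotypes the kidneys were digested with dispase and collagenase IV in the warm, the suspensions were frozen and later combined, and the libraries of a genotype were made from separate portions of cells sorted at the same time. The *P* values below therefore measure the spread between such portions, and no undissociated kidney was among the 4 libraries.

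Reads counted on genes ranged from 17457452 to 37999342 per library, with both *Eya1*cKO libraries below both controls. Reads that fell on no gene were 12.9% and 13.9% of the reads recorded in the controls and 20.9% and 22.7% in *Eya1*cKO, whereas mitochondrial genes took between 2.25% and 2.47% of the gene reads in all 4 libraries. The targeted gene *Eya1* went from 180 ± 12.6 to 14.6 ± 2.96 CPM (counts per 1000000 gene reads of the TMM-scaled library, mean ± SD, n = 2 libraries per genotype). The labelled tissue was checked by markers. The 7 nephron progenitor markers, among them *Six2* and *Sall1*, all fell in *Eya1*cKO, from a summed 1256 ± 17.3 to 256 ± 31.4 CPM, and the 6 podocyte markers all rose, from 509 ± 7.11 to 2349 ± 3.25 CPM. Of other cell types, 8 of 8 endothelial markers and 6 of 7 renal stroma markers rose, to summed levels of 1065 and 1124 CPM (from 617 and 628) and of 3275 and 3531 CPM (from 1699 and 1696). The 6 sympathoadrenal and 6 adrenal cortex markers also rose, the former from 5.32 and 9.65 to 494 and 514 CPM and the latter from 15.6 and 11.2 to 696 and 669 CPM. Of the 6 ureteric bud markers 1 rose and 2 fell, with summed levels between 208 and 264 CPM. Macrophage and blood markers lay between 151 and 169 CPM in the 4 libraries. The 7 erythroid markers summed to at most 1.365 CPM and 3 of them had no read. Since these are bulk libraries, a different number of cells of a type and a different amount of RNA per cell cannot be told apart.

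*Egr1*, *Jun*, *Fos* and *Ier2* of the immediate-early genes were among the most abundant messages of both genotypes. *Egr1*, a zinc-finger factor, had 2198 and 2164 CPM in the controls against 1944 and 2051 CPM in *Eya1*cKO, and the AP-1 subunit *Jun* had 1486 and 1528 CPM in the controls against 1487 and 1610 CPM in *Eya1*cKO. The AP-1 partners *Fosb* and *Fos* followed, *Fosb* at 1044 and 1040 CPM in the controls against 1325 and 1463 CPM in *Eya1*cKO, and *Fos* at 882 and 910 CPM against 914 and 1069 CPM. Divided by exonic length in kb, the control levels of *Egr1*, *Jun*, *Fos* and *Ier2* were 486, 473, 381 and 264 CPM per kb, which ranked 25, 26, 36 and 67 among the 19021 genes ranked, and in *Eya1*cKO these genes ranked 31, 25, 34 and 77. In the controls 6 of the 23 immediate-early genes lay above the 99th percentile and 13 above the 90th percentile of level per kb, whereas *Nr4a3* and *Fosl1* were at 2.17 and 2.25 CPM per kb. The 23 genes together took 7806 and 7854 CPM in the controls against 8197 and 8960 CPM in *Eya1*cKO. Both *Eya1*cKO libraries were thus above both controls in the sum, but they differed more from each other than the controls did.

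**Figure D1:**
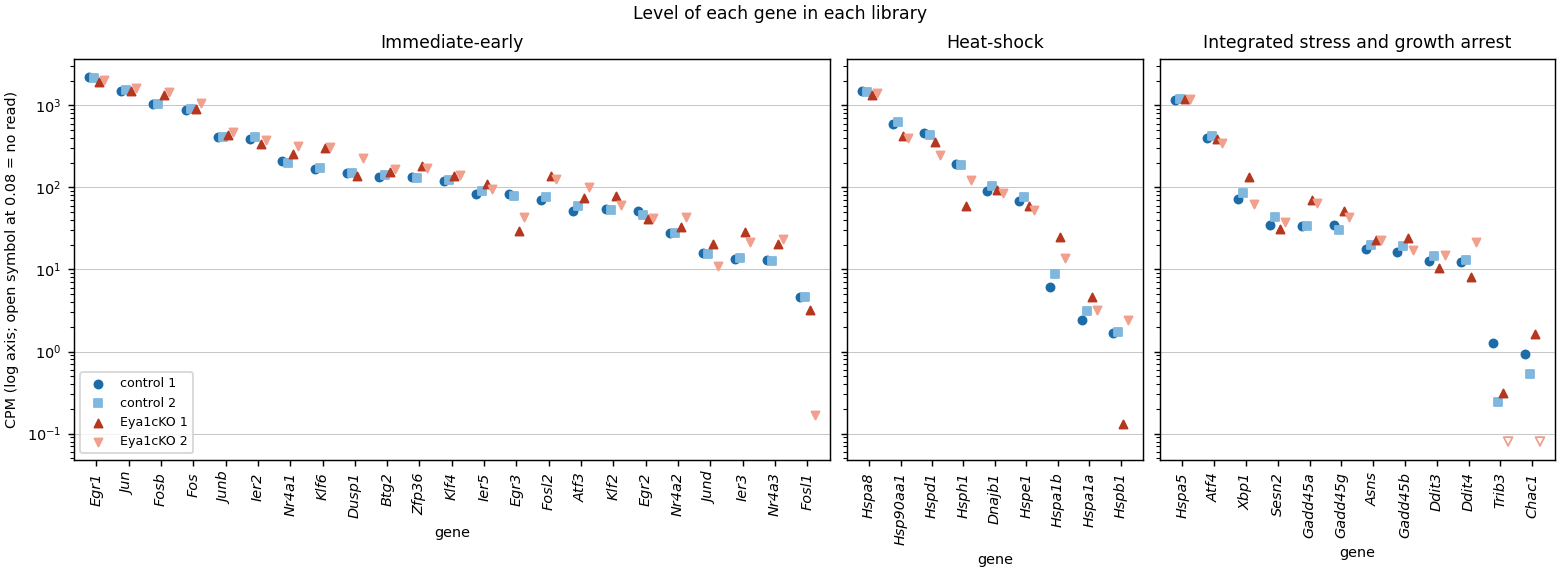
CPM of each of the 44 genes in each of the 4 libraries, on a log axis, ordered within each panel by the mean of the controls; open symbols mark libraries without a read. The level of a gene spans more than the difference between genotypes, from *Egr1* at 1944 CPM or more in every library to *Trib3* and *Chac1*, which had no read in *Eya1*cKO 2.

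The heat-shock genes divided by level. The constitutive chaperone *Hspa8*, which encodes Hsc70, was at 1488 and 1460 CPM in the controls against 1332 and 1431 CPM in *Eya1*cKO. The classical stress-inducible Hsp70 genes lay near the bottom of the list, with 84, 117, 106 and 57 reads on *Hspa1a* and 212, 333, 563 and 244 reads on *Hspa1b* (both controls first, then both *Eya1*cKO libraries). *Hspa1a* and *Hspa1b* together were at 8.464 and 12 CPM in the controls against 29.5 and 17.1 CPM in *Eya1*cKO. In level per kb the controls had 343 for *Hspa8* against 2.67 for *Hspa1b* and 0.931 for *Hspa1a*, at the 99.8th, 44.6th and 27.7th percentiles. *Hspa1a* and *Hspa1b* are near-identical in sequence. Reads without a unique alignment, 7.95% to 9.06% of those recorded per library, were left out, so the levels of these genes could be too low. The small chaperone *Hspb1* had 58 and 65 reads in the controls and 3 and 42 reads in *Eya1*cKO (log2 change -0.60, SE 1.04, edgeR-adjusted *P* 0.75), a value that ran from -3.65 to 0.48 with each library left out in turn. *Dnajb1*, an Hsp40 gene that is also heat-inducible, was at 90.9 and 103 CPM in the controls against 92.6 and 84.4 CPM in *Eya1*cKO. In the controls 5 of the 9 heat-shock genes were in the top 10% of level per kb, *Dnajb1* and *Hsp90aa1* among them.

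Among the stress genes, the ER chaperone *Hspa5* (BiP) and the transcription factor *Atf4* were abundant, *Hspa5* at 1158 and 1188 CPM in the controls against 1206 and 1184 CPM in *Eya1*cKO, and *Atf4* at 399 and 425 CPM against 387 and 349 CPM. *Ddit3*, *Trib3* and *Chac1*, which lie downstream of Atf4, had control levels of 7.93, 0.352 and 0.451 CPM per kb, against 277 for *Hspa5* and 175 for *Atf4*. Other genes of the response were not low, such as *Ppp1r15a*, which encodes the eIF2alpha phosphatase subunit Gadd34, at 89.2 CPM per kb, a gene chosen after its value was seen. *Ddit3*, which encodes CHOP, had 12.8 and 14.4 CPM in the controls against 10.5 and 15.1 CPM in *Eya1*cKO. The pseudokinase gene *Trib3* had 44 and 9 reads in the controls and 7 and 0 reads in *Eya1*cKO, and *Chac1*, a glutathione-degrading enzyme, had 33, 20, 37 and 0 reads. For *Trib3* the libraries of the genotypes overlapped and the gene had too few reads to be tested. A count of 0 in *Eya1*cKO 2 allows up to 0.171 CPM, the amount of 3 counts.

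Between the genotypes, 43 of the 44 genes could be tested with edgeR's quasi-likelihood test, and 8 passed an adjusted *P* of 0.05 over all genes tested, 5 higher and 3 lower in *Eya1*cKO. Over all 19041 genes tested the same rule called 9.56%, 5.15% higher and 4.41% lower. On mm10, *Fosb* is at chr7:19302696-19310051, *Fosl2* at chr5:32135801-32157842, *Klf6* at chr13:5861482-5870394, *Zfp36* at chr7:28376784-28380253, *Egr3* at chr14:70077203-70082614, *Hsp90aa1* at chr12:110690605-110702728, *Hsph1* at chr5:149614287-149636376 and *Gadd45a* at chr6:67035096-67037457, all annotated as protein-coding and counted over their exons. *Fosb*, *Fosl2*, *Klf6* and *Zfp36* of the immediate-early genes rose by 1.34-, 1.79-, 1.83- and 1.33-fold, and *Egr3* fell to 0.442 times its control level. *Hsp90aa1* and *Hsph1* of the heat-shock genes fell to 0.676 and 0.463 times, and *Gadd45a* of the stress genes rose 1.98-fold. The median log2 fold change (*Eya1*cKO over control) was 0.26 over the 23 immediate-early genes, -0.35 over the 9 heat-shock genes and 0.25 over the 11 stress genes tested, beside 0.02 over all genes tested. Both *Eya1*cKO libraries lay above both controls in 15 immediate-early genes and below them in 5, whereas this was the case in 2 and 5 of the heat-shock genes and in 3 and 1 of the stress genes. Over all genes tested, 55.3% did not overlap, 25.3% with *Eya1*cKO above and 30.1% below. Without control 1 or without control 2 none of the 8 genes passed edgeR's test, with adjusted *P* from 0.191 to 0.638 and from 0.193 to 0.699 for these genes, although all 8 kept their direction and 9 and 8 of the genes tested had an unadjusted *P* under 0.05. Without *Eya1*cKO 1 or without *Eya1*cKO 2, 23 and 21 genes passed, but the spread in these fits came from the 2 controls alone, which differed less from each other than the *Eya1*cKO libraries did, so these counts lend the calls no support.

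**Figure D2:**
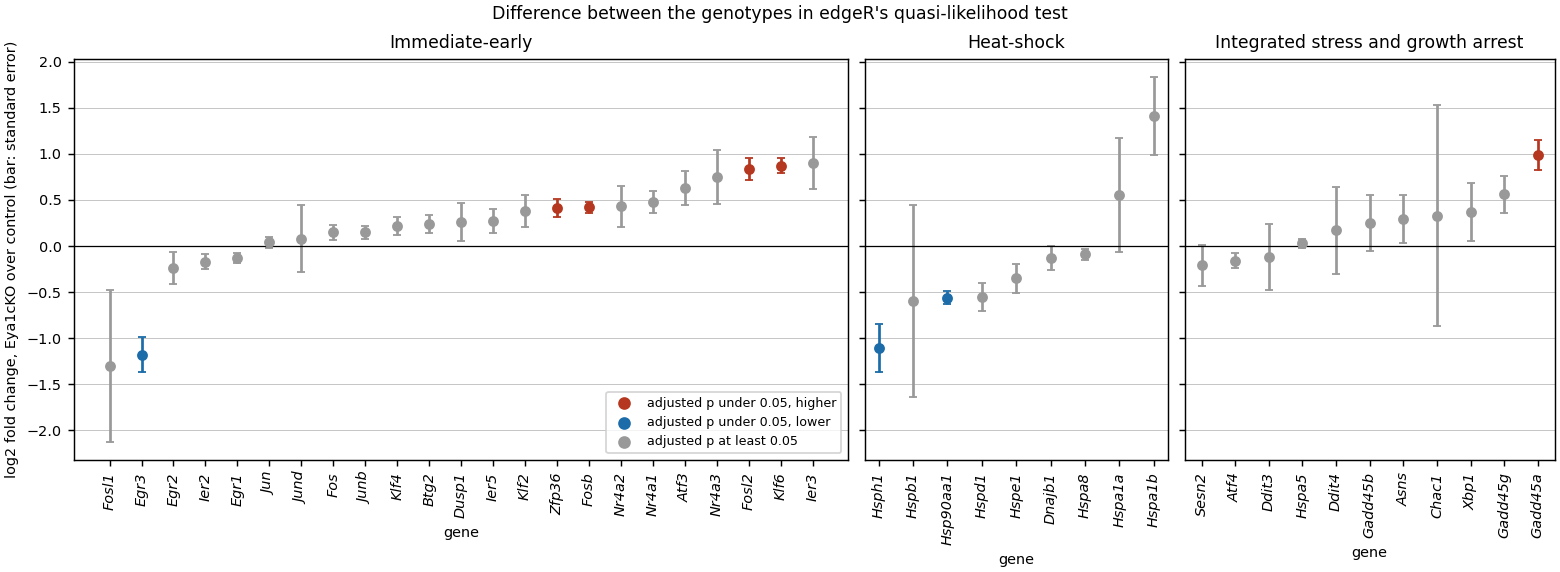
Log2 fold change of *Eya1*cKO over control for the 43 genes tested, with standard errors, in 3 panels; red and blue points passed an adjusted *P* of 0.05 in edgeR. The immediate-early genes lie mostly above 0, from -1.30 for *Fosl1* to 0.90 for *Ier3*, and 7 of the 9 heat-shock genes lie below 0.

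Of the Fos and Jun genes, which encode the subunits of AP-1, *Fosb* and *Fosl2* passed the test. *Fosb* rose from 1042 ± 2.80 to 1394 ± 97.3 CPM, a difference of 0.42 ± 0.06 (SE) on the log2 scale with an edgeR-adjusted *P* of 0.01. *Fosl2*, which encodes the more slowly induced Fra-2, had 69.6 and 77.2 CPM in the controls against 137 and 126 CPM in *Eya1*cKO, a difference of 0.84 ± 0.12 (SE) on the log2 scale with an edgeR-adjusted *P* of 0.0093. *Fos* itself had 0.15 (SE 0.08, edgeR-adjusted *P* 0.28), with 0.02 without *Eya1*cKO 2 and 0.25 without *Eya1*cKO 1, *Jun* 0.04 (SE 0.06, edgeR-adjusted *P* 0.69) and *Junb* 0.15 (SE 0.07, edgeR-adjusted *P* 0.22). The libraries of the genotypes did not overlap for *Fos* and *Junb*, but did so for *Jun*. In level per kb, *Fos* made up 68.0% and 68.6% of the Fos family in the controls and 63.0% and 64.8% in *Eya1*cKO, and *Fosb* 30.3% and 29.6% against 34.4% and 33.4%. *Jun* made up 69.6% to 72.0% of the Jun family in the 4 libraries. *Fosl1*, which encodes Fra-1, had 161 and 171 reads in the controls and 72 and 3 reads in *Eya1*cKO, with -1.30 on the log2 scale (SE 0.82, edgeR-adjusted *P* 0.34), a value that was -4.72 without *Eya1*cKO 1 and -0.54 without *Eya1*cKO 2. *Jund* had 15.7 and 15.2 CPM in the controls against 20.6 and 11.1 CPM in *Eya1*cKO, where the libraries overlapped (log2 change 0.08, SE 0.36, edgeR-adjusted *P* 0.91). Of the exonic length of *Fosl1* and *Jund*, 57.2% and 52.6% is shared with a gene on the opposite strand, so that their counts are uncertain.

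The Egr genes lay lower in both *Eya1*cKO libraries than in both controls, but 1 of them passed the test. *Egr3* fell, with 82.5 and 79.2 CPM in the controls against 29.5 and 43.3 CPM in *Eya1*cKO, a difference of -1.18 ± 0.19 (SE) on the log2 scale with an edgeR-adjusted *P* of 0.015. *Egr1* had -0.13 (SE 0.05, edgeR-adjusted *P* 0.15) and *Egr2*, with 52.2 and 46.5 CPM in the controls against 41.4 and 42.0 CPM in *Eya1*cKO, had -0.24 (SE 0.17, edgeR-adjusted *P* 0.40). *Egr3* therefore went from 3.57% and 3.49% of the Egr family's level per kb to 1.48% and 2.05%.

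Of the Klf and Nr4a transcription factors, *Klf6* rose most clearly, from 166 and 171 CPM in the controls to 302 and 315 CPM in *Eya1*cKO, a difference of 0.87 ± 0.08 (SE) on the log2 scale with an edgeR-adjusted *P* of 0.0021. This was the smallest adjusted *P* of the 43 genes tested, and its *Eya1*cKO libraries differed by 0.06 on the log2 scale. *Klf2* and *Klf4*, which are both strongly expressed in endothelium, had log2 fold changes of 0.38 (adjusted *P* = 0.185) and 0.22 (adjusted *P* = 0.20), that of *Klf2* between 0.17 and 0.52 with each library left out. *Klf2* was at 54.8 and 53.2 CPM in the controls against 77.9 and 61.0 CPM in *Eya1*cKO, beside a summed endothelial marker level that went from 617 and 628 to 1065 and 1124 CPM, and the part of these cells in the difference was not tested. The orphan receptors *Nr4a1*, *Nr4a2* and *Nr4a3* were all higher in both *Eya1*cKO libraries. For *Nr4a1*, at 212 and 197 CPM in the controls against 255 and 318 CPM in *Eya1*cKO, the log2 change of 0.48 (SE 0.12) had an edgeR-adjusted *P* of 0.0501, just short of the threshold. It passed in 3 of the 8 alternatives with all 4 libraries, with a range of adjusted *P* from 0.0037 in DESeq2 to 0.118, and the log2 change lay between 0.30 and 0.63 with each library left out in turn. *Nr4a2* had 27.97 and 27.95 CPM against 32.7 and 43.7 CPM, and *Nr4a3* 13.2 and 12.8 CPM against 20.4 and 23.7 CPM, with log2 fold changes of 0.43 and 0.75 (adjusted *P* = 0.25 and 0.14), the former between 0.21 and 0.64 with each library left out.

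Among the feedback regulators, *Zfp36*, whose product tristetraprolin promotes decay of AU-rich mRNAs, rose from 136 and 131 CPM in the controls to 183 and 172 CPM in *Eya1*cKO, a difference of 0.41 ± 0.10 (SE) on the log2 scale with an edgeR-adjusted *P* of 0.044. Among the settings that lost the call were no filter on genes, edgeR's legacy method, thinning the controls to the depth of *Eya1*cKO, and either control left out. The MAP kinase phosphatase gene *Dusp1* was at 150 and 152 CPM in the controls but at 138 and 228 CPM in *Eya1*cKO, so that its 2 *Eya1*cKO libraries lay on either side of the controls (log2 change 0.26, SE 0.21, edgeR-adjusted *P* 0.45). The antiproliferative gene *Btg2* had 135 and 140 CPM against 155 and 169 CPM, with a log2 fold change of 0.24 (adjusted *P* = 0.18). The stress-induced factor *Atf3* had 51.8 and 59.3 CPM in the controls against 74.1 and 101 CPM in *Eya1*cKO, a difference of 0.63 ± 0.18 (SE) on the log2 scale with an edgeR-adjusted *P* of 0.079. It passed in DESeq2 (adjusted *P* 0.029), and lay between 0.40 and 0.85 with each library left out. *Ier3*, a modulator of apoptosis, had 13.5 and 14.0 CPM against 28.8 and 21.8 CPM, a difference of 0.90 ± 0.28 (SE) on the log2 scale with an edgeR-adjusted *P* of 0.097. *Ier5* and *Ier2* had log2 fold changes of 0.27 and -0.17 (adjusted *P* = 0.22 for both). Neither genotype's libraries overlapped the other's for *Atf3*, *Ier2*, *Ier3*, *Ier5* and *Btg2*.

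RefSeq sequence before the start of transcription was given for 38 of the 44 genes and not for *Fosl1*, *Egr1*, *Egr3*, *Ier2*, *Hspa8* and *Hsp90aa1*. The 250 bases before the start (GRCm38.p6) were searched on both strands for 7 motifs by which these genes are classically known to be regulated. Of the 38 windows, 21 reach into the gene's own span in GENCODE M21, whose first start can lie before that of RefSeq, and 5 lie wholly inside it, those of *Fosl2*, *Zfp36*, *Nr4a1*, *Atf3* and *Dusp1*. The window of *Fosb*, at chr7:19310046-19310295 on the minus strand, is shown because this gene rose and all but 6 of its bases lie before the annotated gene. It is written 5′ to 3′ with the motif match in capitals.
Fosb: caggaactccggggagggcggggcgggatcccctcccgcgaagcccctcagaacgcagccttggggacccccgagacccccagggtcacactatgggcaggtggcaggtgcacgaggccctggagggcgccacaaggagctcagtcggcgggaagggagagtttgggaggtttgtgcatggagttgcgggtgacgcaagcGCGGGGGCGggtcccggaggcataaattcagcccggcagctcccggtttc
The letters GCGNGGGCG, the core recognised by Egr factors, start at base -50 in *Fosb*, and are also present in the windows of *Fosl2* and *Zfp36*, at -79 and -105. In *Zfp36* a CArG box, the site of serum response factor, starts at base -58, and in *Fosl2* the heat-shock element unit GAANNTTC starts at base -244. The window of *Klf6*, the other immediate-early gene that rose, held none of the 7. Egr letters were found in 8 of the 19 immediate-early windows, in 0 of the 7 heat-shock windows and in 1 of the 12 stress windows, beside 4.65% of the 27025 windows of all genes. The CArG box was found in 1 of the 19 immediate-early windows (1.4% of all windows) and the cAMP response element TGACGTCA in 2, those of *Btg2* and *Dusp1* (1.62% of all windows). The AP-1 letters TGANTCA were in none of these 19 windows and in 6.87% of all windows. Such matches are descriptions of the sequence, and an element outside the 250 bases would not be seen. The windows of all genes were not matched to the 38 windows for base composition.

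The cytosolic chaperone genes *Hsp90aa1* and *Hsph1* fell in *Eya1*cKO. *Hsp90aa1*, the inducible Hsp90 gene, had 592 and 626 CPM in the controls against 420 and 403 CPM in *Eya1*cKO, a difference of -0.56 ± 0.07 (SE) on the log2 scale with an edgeR-adjusted *P* of 0.0054. *Hsph1*, which encodes the nucleotide exchange factor Hsp110, had 194 and 186 CPM in the controls against 58.9 and 122 CPM in *Eya1*cKO, a difference of -1.11 ± 0.26 (SE) on the log2 scale with an edgeR-adjusted *P* of 0.043. Its *Eya1*cKO libraries differed by 1.04 on the log2 scale, its log2 fold change lay between -1.70 and -0.65 with each library left out in turn, and its call was lost under the settings listed for *Zfp36*. The mitochondrial chaperonin genes *Hspd1* and *Hspe1*, a pair read from one shared promoter region in opposite directions, were lower in both *Eya1*cKO libraries. *Hspd1* had 461 and 438 CPM against 357 and 250 CPM (log2 change -0.55, SE 0.15, edgeR-adjusted *P* 0.062, and -0.86 to -0.35 with each library left out), and *Hspe1* 67.5 and 76.1 CPM against 59.5 and 52.4 CPM (log2 fold change -0.35, adjusted *P* = 0.19). *Hspd1* passed in DESeq2 and where all 4 libraries had to hold 10 counts. *Hspa8* and its Hsp40 partner *Dnajb1* had log2 fold changes of -0.09 and -0.13 (adjusted *P* = 0.32 and 0.57). Summed over the 9 genes, the level was 2903 and 2904 CPM in the controls against 2349 and 2362 CPM in *Eya1*cKO.

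*Hspa1b* was the heat-shock gene with the highest log2 fold change, 1.41 (standard error 0.42), with an edgeR-adjusted *P* of 0.087 over all 4 libraries. It passed in DESeq2, and its log2 change lay between 0.87 and 1.71 over the leave-one-out fits. It had 6.06 and 8.88 CPM in the controls against 24.9 and 13.9 CPM in *Eya1*cKO. *Hspa1a* had 2.40 and 3.12 CPM against 4.68 and 3.24 CPM (log2 fold change 0.55, adjusted *P* = 0.61, and 0.21 to 0.74 with each library left out). These genes are near-identical neighbours on chromosome 17, so that reads fitting both equally would fall among those not uniquely aligned, which were left out. In addition, 19% of the exonic length of *Hspa1a* is shared with a gene on the opposite strand. Their windows before the start, at chr17:34972157-34972406 and chr17:34959239-34959488 on the minus strand, are shown because they differ at 3 of the 250 bases and both hold the same heat-shock element unit (capitals).
Hspa1a: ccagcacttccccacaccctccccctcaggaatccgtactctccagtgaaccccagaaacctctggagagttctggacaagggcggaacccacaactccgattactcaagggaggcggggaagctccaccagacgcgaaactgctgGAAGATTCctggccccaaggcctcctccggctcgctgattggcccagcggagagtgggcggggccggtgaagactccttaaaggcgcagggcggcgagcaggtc
Hspa1b: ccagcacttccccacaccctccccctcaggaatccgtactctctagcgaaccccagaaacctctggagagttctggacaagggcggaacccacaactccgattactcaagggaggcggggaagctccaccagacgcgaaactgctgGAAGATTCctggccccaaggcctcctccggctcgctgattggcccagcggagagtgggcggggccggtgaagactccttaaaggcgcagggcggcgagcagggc
GAANNTTC starts at base -104 in both. It was found in 4 of the 7 heat-shock windows, those of *Hspa1a*, *Hspa1b*, *Hspb1* and *Hspe1*, beside 6.78% of all windows, in 2 of the 19 immediate-early windows (*Jun* and *Fosl2*) and in 1 of the 12 stress windows (*Asns*). The gene of this list that fell and has a window, *Hsph1*, held none of the 7 motifs. The heat-shock element was searched only as GAANNTTC, and the reverse order, TTC before GAA, was not searched or counted. The *Hsph1* window holds TTC before GAA with the same spacing, so it cannot be said to lack a heat-shock element.

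**Figure D3:**
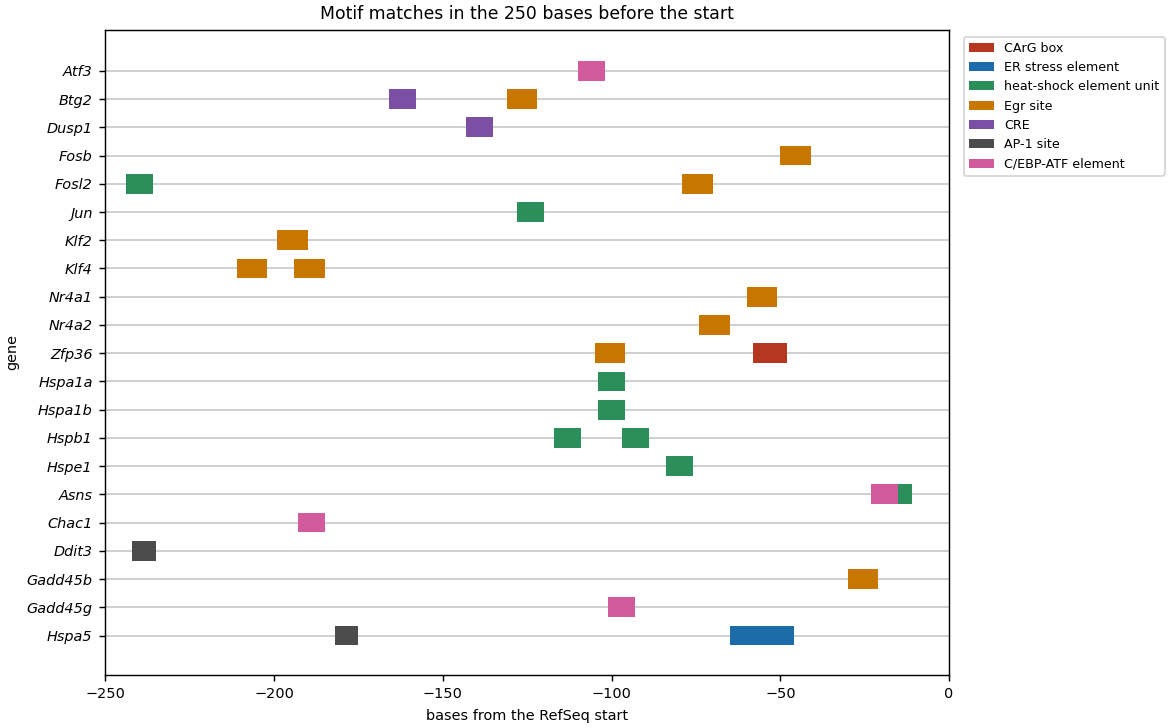
Positions of motif matches in the 250 bases before the RefSeq start for the 21 genes with at least 1 match, immediate-early genes at the top, then heat-shock and stress genes. Egr sites are mostly in immediate-early genes, 8 against 1, and GAANNTTC, the only heat-shock element arrangement searched, is in 4 heat-shock genes.

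Of the stress genes, *Gadd45a* alone passed the test. *Gadd45a*, a growth arrest and DNA damage gene, rose from 33.5 and 34.0 CPM in the controls to 69.3 and 64.0 CPM in *Eya1*cKO, a difference of 0.99 ± 0.16 (SE) on the log2 scale with an edgeR-adjusted *P* of 0.014, with 19.1% of its exonic length shared with a gene on the opposite strand. Its relatives *Gadd45g* and *Gadd45b* had log2 fold changes of 0.56 (adjusted *P* = 0.12) and 0.25 (adjusted *P* = 0.62). *Gadd45g* was higher in both *Eya1*cKO libraries, at 51.4 and 43.7 CPM against 35.1 and 30.1 CPM, and *Gadd45b* overlapped.

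Of the 11 stress genes tested, 2 had an unadjusted *P* under 0.05 in edgeR, *Gadd45a* and *Gadd45g*. *Atf3*, whose window holds an Atf4-type element, was listed with the immediate-early genes and had an unadjusted *P* of 0.011. Of the 38 other integrated stress genes described below, 14 had an unadjusted *P* under 0.05 in either direction, beside 5479 of the 19041 genes tested. *Hspa5* had 0.03 ± 0.05 (SE) on the log2 scale with an edgeR-adjusted *P* of 0.77, the smallest of the 43 genes in size, and *Atf4* had -0.16 (SE 0.08, edgeR-adjusted *P* 0.25). *Ddit3* had -0.12 (SE 0.36, edgeR-adjusted *P* 0.86), and *Asns*, which makes asparagine, had 17.5 and 19.7 CPM against 22.78 and 22.97 CPM, 0.29 (SE 0.26, edgeR-adjusted *P* 0.495). The mTORC1 inhibitors *Sesn2* and *Ddit4* had log2 fold changes of -0.21 (SE 0.22, edgeR-adjusted *P* 0.57) and 0.17 (SE 0.47, edgeR-adjusted *P* 0.85). *Ddit4* was at 12.3 and 12.9 CPM in the controls against 8.08 and 21.8 CPM in *Eya1*cKO, and *Xbp1*, the transcription factor of the unfolded protein response, at 71.4 and 86.0 CPM in the controls against 136 and 62.0 CPM in *Eya1*cKO. In both genes the control libraries thus lay between the 2 *Eya1*cKO libraries, and the log2 changes of 0.17 for *Ddit4* and 0.37 for *Xbp1* (SE 0.31, edgeR-adjusted *P* 0.47) changed sign with the library left out. *Chac1*, with reads in 3 of the 4 libraries, had 0.33 (SE 1.20, edgeR-adjusted *P* 0.89) and likewise changed sign. The window of *Hspa5*, of which 120 bases lie in an annotated exon, holds the ER stress element by which this gene is classically induced, from base -65. The element was found in 33 of 27025 windows (0.122%) and in no other window of the 38 genes. The AP-1 letters TGANTCA start at base -182. The Atf4-type element TGATGNAA was found in 3 of the 12 stress windows, those of *Asns*, *Chac1* and *Gadd45g*, and in that of *Atf3*, beside 3.53% of all windows.

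The spread between libraries of a genotype was uneven. Over the 43 genes tested, the median absolute log2 ratio of library 2 to library 1 was 0.06 in the controls and 0.23 in *Eya1*cKO, beside 0.16 and 0.48 over all genes tested (from CPM + 0.5). The ratio in *Eya1*cKO was -2.46 for *Fosl1*, 2.19 for *Hspb1*, -2.09 for *Chac1*, 1.38 for *Ddit4*, -1.12 for *Xbp1*, 1.04 for *Hsph1*, -0.86 for *Jund*, -0.82 for *Hspa1b* and 0.72 for *Dusp1*, while the same genes had ratios between -0.48 and 0.52 in the controls. Of these 9 genes, 4 were higher in *Eya1*cKO 2 and 5 in *Eya1*cKO 1. By list, the median absolute ratio in *Eya1*cKO was 0.19 for the immediate-early, 0.47 for the heat-shock and 0.27 for the stress genes.

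**Figure D4:**
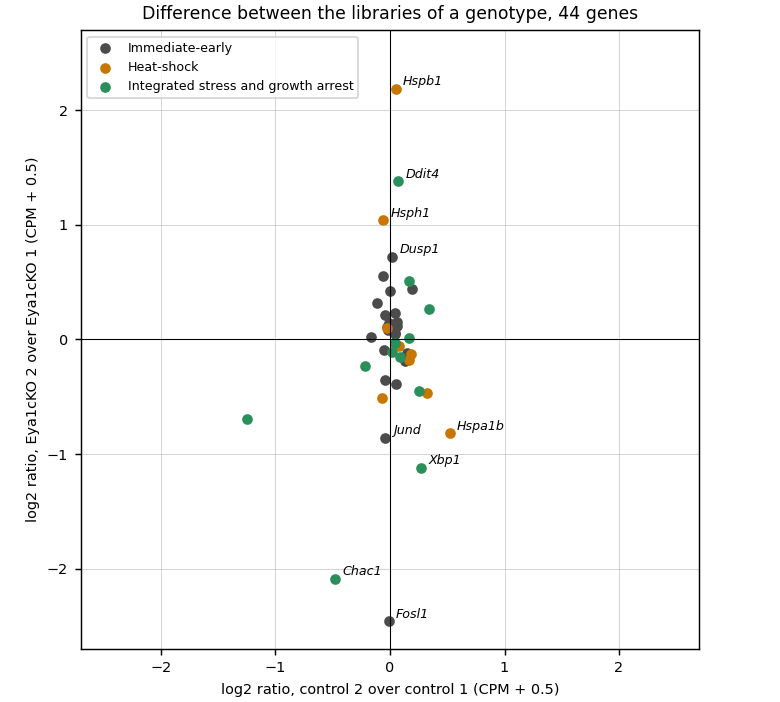
Log2 ratio of library 2 to library 1 in the controls (horizontal) and in *Eya1*cKO (vertical) for each of the 44 genes, from CPM + 0.5, on equal axes. Most genes lie within 0.5 of 0 in the controls, while *Fosl1*, *Hspb1*, *Chac1*, *Ddit4*, *Xbp1* and *Hsph1* lie beyond 1 in either direction in *Eya1*cKO.

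Further genes of the same pathways were read from 4 lists. Of 30 other immediate-early genes, 8 rose and 2 fell in edgeR's test (33.3%, beside 9.56% of all genes tested), with a median log2 fold change of 0.38. The 10 calls became 4 with no filter on low counts, 5 under the legacy method and 6 with thinned controls. *Ccn1*, a matricellular target of serum and YAP signalling, rose from 693 and 712 CPM to 1014 and 987 CPM (log2 change 0.51, SE 0.06, edgeR-adjusted *P* 0.0035). *Sgk1*, a glucocorticoid-induced kinase, and *Rgs2*, a regulator of G-protein signalling, had log2 fold changes of 1.29 and 1.27 (adjusted *P* = 0.007 and 0.015). *Srf*, the serum response factor that binds the CArG box, fell from 330 and 309 CPM to 215 and 214 CPM (log2 change -0.57, SE 0.08, edgeR-adjusted *P* 0.0092), and so did *Ier5l* (log2 fold change -0.57, adjusted *P* = 0.049). The summed level of the list was 2603 and 2627 CPM in the controls against 3124 and 3084 CPM in *Eya1*cKO.

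Of 30 other heat-shock and chaperone genes, 13 fell and 4 rose (56.7%), with a median log2 fold change of -0.33, and the 17 calls became 11 under each of these settings. *Cct6a* and *Cct2*, subunits of the cytosolic chaperonin TRiC, went from 498 ± 1.88 to 303 ± 13.1 CPM and from 492 ± 9.08 to 336 ± 12.5 CPM (log2 fold changes -0.72 and -0.55, adjusted *P* = 0.0027 and 0.0065 in edgeR). All 8 chaperonin subunit genes of the list fell, from -0.72 to -0.34, a set singled out after its values were seen. *Hsp90ab1*, the constitutive Hsp90 gene, fell from 4582 and 4827 CPM to 3722 and 3771 CPM (log2 change -0.33, SE 0.04, edgeR-adjusted *P* 0.007). The genes that rose were led by *Dnajb4* (log2 fold change 1.11, adjusted *P* = 0.006) and the small heat-shock protein genes *Hspb8* (2.53, adjusted *P* = 0.028) and *Cryab* (2.62, adjusted *P* = 0.032), the last from 2.52 and 3.65 CPM to 13.0 and 26.6 CPM. The other riser, named after its value was seen, was *Hspa4l*, a relative of *Hsph1*, from 14.8 and 13.2 CPM to 27.3 and 32.6 CPM (log2 change 1.08, SE 0.26, edgeR-adjusted *P* 0.048). The summed level went from 12048 and 12310 CPM to 9576 and 9921 CPM.

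Of 38 other genes of the integrated stress response, 1 rose and 2 fell, with a median log2 fold change of -0.09. This share of 7.89% was below the 9.56% called over all genes. *Pck2*, a mitochondrial enzyme and Atf4 target, rose by 0.88 on the log2 scale (edgeR-adjusted *P* 0.029), and the aminoacyl-tRNA synthetase genes *Gars* and *Wars* fell (log2 fold changes -0.77 and -0.71, adjusted *P* = 0.0075 and 0.021). Of 27 other genes of the unfolded protein response, *Sel1l*, a component of ER-associated degradation, rose from 150 and 142 CPM to 186 and 207 CPM (log2 change 0.43, SE 0.10, edgeR-adjusted *P* 0.046), and the median log2 fold change was 0.01. With 1 gene called, 3.70% of this list, the share was again below that of all genes. Without control 1 or without control 2, 0 genes of each of these 4 lists passed edgeR's test; with an unadjusted *P* under 0.05 there were 8 and 8 of the immediate-early, 17 and 16 of the heat-shock, 3 and 2 of the integrated stress and 0 and 0 of the unfolded protein genes.

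**Figure D5:**
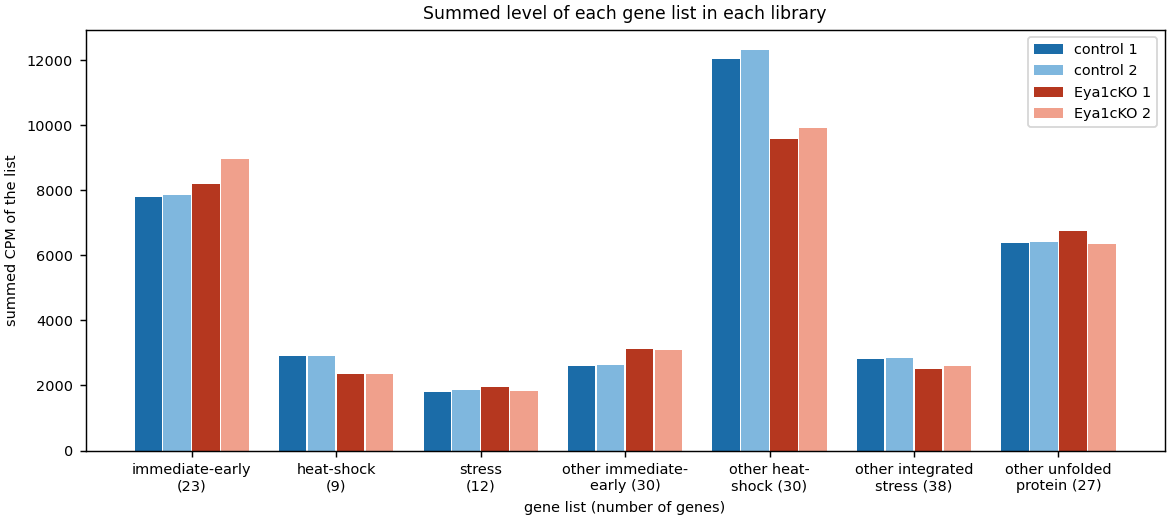
Summed CPM of each gene list in each library, as bars from 0, for the 3 lists of the 44 genes and the 4 lists of further genes. Both heat-shock lists are lower in the 2 *Eya1*cKO libraries than in the 2 controls, both immediate-early lists are higher, the other integrated stress genes are lower (2511 and 2600 against 2815 and 2840 CPM), and the stress members and unfolded protein genes overlap.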

How the data were processed

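Tamoxifen-treated control and *Eya1*cKO kidneys were compared by RNA-seq of sorted cells in 4 libraries. The authors mapped reads to mm10 with HISAT2 and counted them on Ensembl release 90 genes with HTSeq-count. The files deposited by the authors hold raw counts per gene, not normalized. Neither tool version nor the strand setting is given in the sources used here. HTSeq's 5 unassigned classes, between 31.8% and 46.1% of the reads recorded, were left out.

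Symbols came from a supplied table, positions and exonic lengths from GENCODE M21, on the same build. Genes were kept by filterByExpr (minimum count 10), scaled by TMM and tested for genotype with glmQLFit (legacy = FALSE) and glmQLFTest in edgeR 4.0.16 under R 4.3.3, and *P* values were adjusted by Benjamini-Hochberg (threshold 0.05). SE was derived as the size of the log2 change divided by root F. DESeq2 1.42.0, other scalings and filters, a replicate block, leaving out each library and thinning were alternatives. The authors used DESeq2.

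All 44 members are named; of 4 further lists, those past the threshold with the 3 smallest *P* values, higher and lower apart. Members and lists were chosen with earlier results of these data known. On simulated counts for 17955 genes, 44% of genes changed by 2 and 21% of genes changed by 1 on the log2 scale were recovered, with 0 false calls among 65. The simulation gave both genotypes the same dispersion. In the data the median absolute log2 ratio between libraries was 0.16 in the controls and 0.48 in *Eya1*cKO. The simulated error rate therefore does not carry over to the reported calls. Limits of detection cover counting error only.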

Additional observations from a re-analysis of the deposited data

Results flagged for a closer look

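Reads that were recorded but not assigned to a gene lie outside the comparisons of the report. Reads on no gene made up 22.7% of the reads recorded in *Eya1*cKO 1 and 20.9% in *Eya1*cKO 2, above 13.9% and 12.9% in the controls, and reads not aligned made up 12.9% and 12.7%, above 6.32% and 6.69%. Both shares were higher in both *Eya1*cKO libraries, and their part in the differences of the 44 genes was not tested.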

How the results depend on the processing

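The 8 genes that passed the test kept their direction under all 12 alternatives. Of 513 values of single genes under an alternative, 439 kept direction and side of the threshold, 27 lost it, 35 gained it and 12 reversed. Over all genes, 1820 passed, against 1055 with no low-count filter, 2734 with DESeq2's Wald test and 1096 with the legacy method. Of the heat-shock members 2 passed, against 4 with DESeq2's Wald test and 1 each with no filter, the legacy method and thinned controls. Of the other immediate-early genes 10 passed, against 4 with no filter, 5 with the legacy method and 6 with thinned controls, of the other heat-shock genes 17, against 11 under each of these, and of the other unfolded protein genes 1, against 0 under each (edgeR; 6, 5 and 6 had an unadjusted *P* under 0.05, and 1 passed with DESeq2). Of the other integrated stress genes 3 passed, against 5 where every library had to hold 10 counts.

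With each library left out in turn, between 23 and 7925 genes passed in all, 0 to 23 members, 0 to 16 immediate-early, 0 to 5 heat-shock and 0 to 3 stress members, and 0 to 20, 0 to 26, 0 to 18 and 0 to 11 of the other immediate-early, heat-shock, integrated stress and unfolded protein genes. The lowest counts came without control 1 or control 2, when 1 control is assumed to vary like the *Eya1*cKO libraries, and the highest without an *Eya1*cKO library. The log2 change ranged over these fits from -0.03 to 0.09 for *Jun*, -0.49 to 0.40 for *Jund*, -0.14 to 0.59 for *Dusp1*, -3.65 to 0.48 for *Hspb1*, -0.03 to 0.42 for *Gadd45b*, -0.39 to 0.14 for *Ddit3*, -0.01 to 0.03 for *Hspa5*, -0.36 to 0.77 for *Xbp1*, -7.47 to 1.14 for *Chac1* and -0.66 to 0.78 for *Ddit4*. Without a change of sign it ranged from 0.08 to 0.19 for *Junb*, -0.26 to -0.10 for *Ier2*, 0.16 to 0.34 for *Ier5*, -0.24 to -0.05 for *Dnajb1*, -0.16 to -0.05 for *Hspa8*, -0.25 to -0.10 for *Atf4*, 0.19 to 0.37 for *Asns* and -0.39 to -0.04 for *Sesn2*. The median of all genes was -0.209 with no filter, -0.157 without *Eya1*cKO 1 and -0.112 without *Eya1*cKO 2, against 0.016 as reported.

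Replicate numbers are shared by the genotypes, but the deviations of same-numbered libraries correlated at 0.0062, so the numbers were not taken to pair them. With the replicate block 621 genes passed in all, 3 members (*Fosb*, *Klf6* and *Hsp90aa1*; *Fosl2*, *Egr3*, *Gadd45a*, *Hsph1* and *Zfp36* had adjusted *P* of 0.0542, 0.0657, 0.072, 0.0911 and 0.126), of which 2 were immediate-early, 1 heat-shock and 0 stress genes, and 3, 8, 1 and 0 of the other immediate-early, heat-shock, integrated stress and unfolded protein genes. The cause of each of these changes was not tested. The values of genes with few reads, such as *Trib3*, *Chac1*, *Hspb1*, *Hspa1a* and *Fosl1*, are uncertain.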
